A study of Mus musculus with 21 samples.

Results

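RNA from 3 macrophage populations of the mouse kidney was compared between renal artery stenosis (RAS) and Sham surgery, to ask which genes changed in the same direction in each population. The comparison took all 21 libraries of the series, 11 from RAS kidneys and 10 from Sham kidneys, and estimated 1 effect of RAS within populations by giving population an additive term. Of 34236 gene names in the count table, 14504 had enough counts to be tested. Of these, 540 passed an adjusted p of 0.05 and are referred to as called, which is 3.72% of the genes tested, and 535 of the 540 had a fold change of 1 sign in all 3 populations.

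CD11chiMϕ are F4/80+CD64+ cells with high CD11b and high CD11c, and gave 3 Sham and 4 RAS libraries. CD11cloMϕ have high CD11b and little CD11c, and also gave 3 Sham and 4 RAS libraries. KRM, the kidney-resident macrophages, have intermediate CD11b and CD11c, and gave 4 Sham and 3 RAS libraries. All mice were male C57BL/6J with a labelled age of 24 weeks and no transgene named in the labels. In RAS mice a cuff narrowed the right renal artery, and in Sham mice the artery was isolated without a cuff. The labels give a flow sort time of 5 h, and the sort gated out granulocytes, erythroid cells and lymphocytes, including T and NK cells. Each library is RNA of a sorted pool, so fewer cells of a type and less RNA per cell cannot be told apart. The study's methods count fewer RAS samples of CD11chiMϕ and CD11cloMϕ than the labels do and do not say which was left out, so all labelled libraries were used. Leaving out 1 of the 8 RAS libraries of these populations at a time gave 433 to 729 called genes. The labels do not say which libraries came from separate mice, so p-values measure the spread between these libraries, which may be technical.

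A narrowed renal artery leaves the kidney short of blood, raises blood pressure through renin, and is followed by loss of small vessels, inflammation and scarring. Resident macrophages settle in the kidney early in life and renew themselves there, while CD11b-high macrophages derive from blood monocytes and increase after injury. Macrophages that sense damage switch on NF-kB and AP-1, transcription factors that drive cytokines such as interleukin 1 and the chemokines that attract lymphocytes, and they also make growth factors, proteases and inhibitors that remodel matrix.

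Library totals ran from 6891177 to 18592427 counts, with a median of 9357851, and levels are given as CPM, counts scaled to library size, after TMM scaling, so that 0 counts still allow up to 3 counts, or 0.15 to 0.476 CPM depending on the library, counting error only. The 18 macrophage identity genes, among them Adgre1 (F4/80), Fcgr1 (CD64), Csf1r and Mertk, were all above 0 in every library and summed to between 7896 and 54070 CPM. EdgeR's quasi-likelihood test called 0 of these 18, with 3 past an unadjusted p of 0.05, 1 called by DESeq2 and 0 by limma-voom. Without Lyz2, the most abundant on average, KRM sums were 13420 to 16020 CPM in Sham and 7878 to 11970 CPM in RAS, without overlap. Sham and RAS sums overlapped in CD11chiMϕ (3676 to 10880 and 6586 to 9173 CPM) and CD11cloMϕ (8295 to 9371 and 9363 to 17360 CPM). The median log2 fold change of the 18 was -0.181 in CD11chiMϕ, 0.522 in CD11cloMϕ and -0.615 in KRM. Both CD11chiMϕ and CD11cloMϕ had their highest sum of proximal tubule markers in the Sham library numbered 3, as did KRM, at 60850, 12260 and 9615 CPM, and mitochondrial-encoded genes took 18.44% of counts in the first of these. Counts of KRM RAS 1 differed from those of KRM RAS 2 and 3 with a chi-square of 135.6 and 106.7 per degree of freedom, against 10.1 between the latter, while CD11cloMϕ RAS 1 lay nearer to RAS 2 (44.4) than RAS 3 did (127). In CD11chiMϕ the values were 109.1 to 127.9 between RAS 1 and the other RAS libraries. RAS 2 differed from RAS 3 and 4 by 94.3 and 101.3. Between RAS 3 and 4 the value was 5.13, the lowest of all pairs within groups. CD11chiMϕ Sham 3 differed from Sham 1 and 2 by 365.3 and 348, the highest. The KRM RAS 1 column correlated with its namesake in the authors' log2 table by only r = 0.106 across 11965 genes, in deviations from the gene mean, where all other libraries reached at least 0.88, and it was closest to KRM Sham 3 there (r = 0.487). Which table holds the labelled KRM RAS 1 library is not known, and its counts are used here under that label. Leaving it out gave 703 called genes in place of 540. Counts per gene list without the Sham libraries numbered 3 or the RAS libraries numbered 1 are given after the lists where they move by over 1.5 times.

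Among the called genes, 474 were higher in RAS (3.27% of genes tested) and 66 were lower (0.455%). With 1 sign in every population there were 470 higher and 65 lower genes (3.69% in all), while 4207 of all genes tested (29%) had 1 sign. The median log2 fold change was 2.32 over the 470 and -0.63 over the 65, and -0.0143 over all genes tested. A stricter count, which also asked for an unadjusted p under 0.05 in each population, left 117 higher and 5 lower genes (122, or 0.841%). RAS and Sham libraries did not overlap in any of the populations for 44 of the higher and 3 of the lower genes (47, or 0.324%), and for 8 genes every RAS library was above every Sham library of all 21 (0.0552%). Those 8, of which all but Il2rb are named because of these values, were Apol7e, Foxj1, Gas2l3, Gbp1, Il2rb, Klrc2, Tcf7 and Tnfrsf9, and the 3 lower genes were Slc35d2, Zfp688 and Zfp954.

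The number of called genes depended on which libraries took part. Leaving out CD11chiMϕ Sham 3 raised it from 540 to 1272, and leaving out KRM Sham 2 or KRM Sham 3 lowered it to 358 or 337. Over the 21 fits that each left out 1 library, 237 higher and 18 lower genes kept their call and their 1 sign throughout. Without the 3 RAS libraries numbered 1 the genes called with 1 sign numbered 1362, without the 3 Sham libraries numbered 3 they numbered 1722, and without both sets 3491. Without KRM 6 genes were called, namely Ccr8, Cd5, Il2rb, Ltb, Tbx21 and Tnfrsf9, all higher in RAS and all named for that reason. With libraries of the same treatment and number averaged over populations, which leaves 8 values, 80 genes were called higher and 6 lower with 1 sign, by limma.

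**Figure D1:**
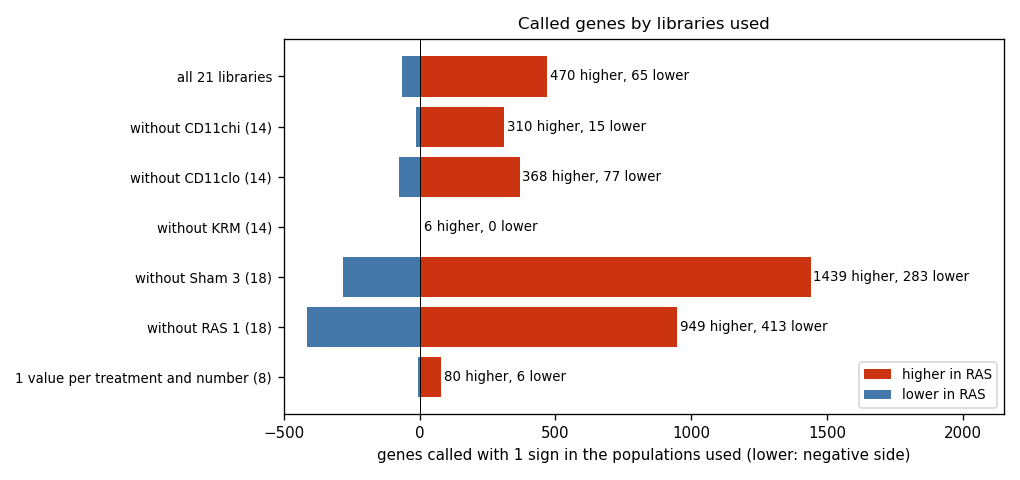
Genes called with 1 sign in the populations used (x axis, number of genes; lower genes on the negative side) for each set of libraries or each model (y axis). The bar for all 21 libraries holds 470 higher and 65 lower genes, and without KRM 6 genes are left.

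T and NK cell markers made up the list with the highest share of called genes. Of its 16 members, 13 were called and all 13 were higher with 1 sign, 9 were past p in each population, and 7 did not overlap between RAS and Sham in any population, against 3.27% of all genes tested that were called higher, 0.841% past p in each population and 0.324% without overlap. The median log2 fold change was 3.72. Called members included Cd3d, Cd3e and Cd3g, the signalling chains of the T cell receptor complex, Trac and Trbc2, its constant regions, Cd8a and Cd8b1, the co-receptor of cytotoxic T cells, and the cytotoxic granule genes Gzma, Prf1 and Nkg7. Cd4, the most abundant member of the list in KRM Sham libraries, was not called, with a shared log2 fold change of 0.30 ± 0.73 (SE). In KRM it was at 105, 107, 99.5 and 76.8 CPM in Sham and 54.6, 19.6 and 24.8 CPM in RAS, lower in every RAS library.

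Il2rb, the beta chain of the interleukin 2 and interleukin 15 receptors (chr15:78479256-78511621, GRCm38.p6), was at 3.1, 1.49 and 3.9 CPM in CD11chiMϕ Sham libraries and 93.3, 14.9, 20.2 and 21 CPM in RAS libraries. CD11cloMϕ libraries held 0.103, 0.464 and 0.332 CPM in Sham and 6.49, 5.85, 4.19 and 5.72 CPM in RAS. In KRM it was at 0.843, 0.847, 0.998 and 0.209 CPM in Sham and 130.0, 19.2 and 20.4 CPM in RAS. No RAS library fell within the Sham range of any population, and RAS 1 was the highest in each. The shared log2 fold change was 4.75 ± 0.55 (SE, adjusted p = 0.000251, edgeR). It held its call without KRM, and by limma on 1 value per treatment and number.

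Cd3g (chr9:44969572-44980431) had the same shape. CD11chiMϕ held 0.10, 0.425 and 4.53 CPM in Sham and 32.2, 26.4, 14.9 and 17.9 CPM in RAS. CD11cloMϕ held 0, 0.116 and 0 CPM in Sham, near the limit of detection, and 9.79, 2.03, 3.51 and 3.53 CPM in RAS. KRM held 0.361, 0.212, 0.349 and 0.523 CPM in Sham and 45.4, 4.78 and 3.76 CPM in RAS. The groups did not overlap in any population, and RAS 1 was again the highest in each. Cd3g rose by 4.96 ± 0.69 (adjusted p = 0.000998).

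Lck, the kinase that starts T cell receptor signalling, rose by 3.83 ± 0.70 (adjusted p = 0.00508), and Nkg7, a granule protein of cytotoxic lymphocytes, by 4.13 ± 0.68 (adjusted p = 0.00348). For both the RAS and Sham ranges were apart in every population: Nkg7 reached 0.957 to 5.91 CPM in Sham and 15.4 to 77.4 CPM in RAS CD11chiMϕ, 0.103 to 1.99 and 3.58 to 6.7 CPM in CD11cloMϕ, and 0.241 to 0.953 and 9.83 to 113 CPM in KRM. Cxcr6, a chemokine receptor of tissue T and NK cells, rose by 3.72 ± 0.63 (adjusted p = 0.00381), but CD11cloMϕ RAS 2, at 0.477 CPM, lay inside the Sham range of 0 to 1.44 CPM. DESeq2 gave no adjusted p for Cxcr6 or Il2rb.

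Il7r, the interleukin 7 receptor, which lymphocytes and some activated myeloid cells carry, was placed differently among the RAS libraries. It was at 2.8, 2.23 and 2.01 CPM in CD11chiMϕ Sham and 15.7, 42.9, 38.2 and 39.5 CPM in RAS libraries. In CD11cloMϕ the values were 0, 0.116 and 0.664 CPM in Sham and 2.58, 0.239, 2.6 and 2.07 CPM in RAS, and in KRM 0.843, 1.17, 0.599 and 1.15 CPM and 16.4, 5.48 and 6.88 CPM. RAS 1 was the lowest in CD11chiMϕ and the highest in KRM, and CD11cloMϕ RAS 2 lay within the Sham range. The shared log2 fold change was 3.39 ± 0.44 (adjusted p = 0.000745). Tnfrsf9 (4-1BB), a co-stimulatory receptor induced on activated T and NK cells, was named for its separation. It lay between 0 and 0.638 CPM in the 10 Sham libraries and between 0.824 and 8.87 CPM in the 11 RAS libraries, and its adjusted p was 0.000118.

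Summed over the 16 T and NK cell markers, CD11chiMϕ Sham libraries held 65.9 to 131.6 CPM and RAS libraries 286.3 to 460.0 CPM. CD11cloMϕ held 4.76 to 11.9 CPM in Sham and 23.8 to 78.7 CPM in RAS. In KRM the sums overlapped, at 83.7 to 113.9 CPM in Sham and 576.7, 87.1 and 79.3 CPM in RAS 1, 2 and 3. Most of the KRM Sham sums was Cd4, and without it they were 6.14 to 7.09 CPM in Sham and 522.1, 67.5 and 54.6 CPM in RAS. Without Cd4 the sums were 60.7 to 119.4 and 267.7 to 430.0 CPM in CD11chiMϕ, and 1.04 to 11.5 and 21.5 to 54.9 CPM in CD11cloMϕ. The sort removed T and NK cells by surface markers. Whether the RNA came from lymphocytes in the sorted pools or from the macrophages was not tested. The count of 13 called T and NK cell genes became 12 with the replicate block, 11 without the RAS libraries numbered 1, 12 without the Sham libraries numbered 3, and 10 on 1 value per treatment and number. Without KRM it was 0, where 6 genes were called in all.

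**Figure D2:**
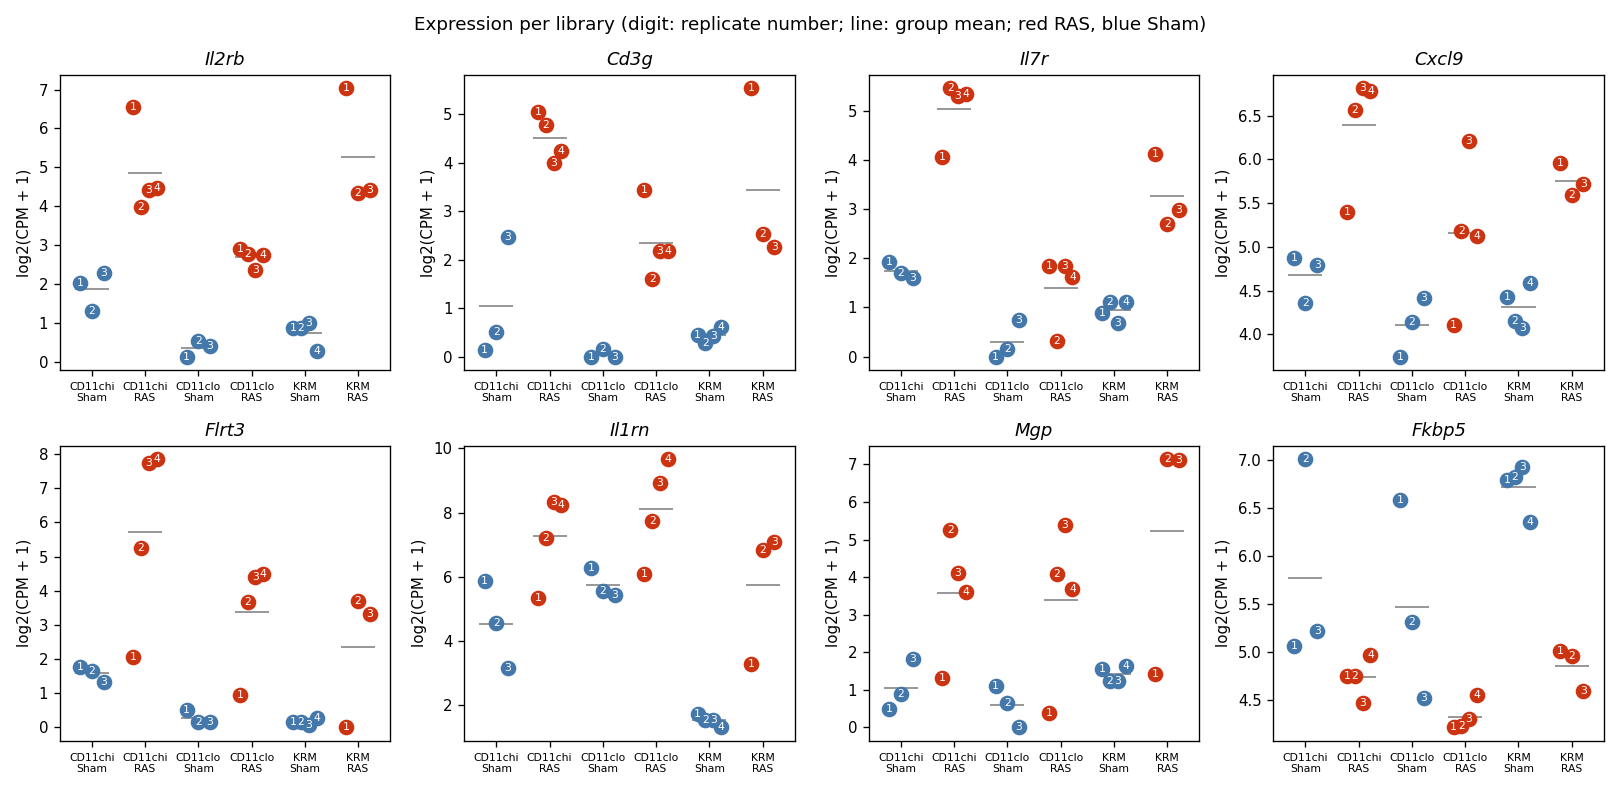
Level of 8 genes in each of the 21 libraries, as log2(CPM + 1) on the y axis, with populations and treatments along the x axis. Each point is 1 library and each bar the group mean. For Il2rb and Cd3g every RAS library lies above the Sham libraries of its population, for Il1rn, Flrt3 and Mgp RAS 1 lies within or below the Sham range in at least 1 population, and Fkbp5 is lower in RAS.

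Inflammatory cytokines and their regulators formed the next group. Of 20 tested genes 10 were called, all higher with 1 sign, and 5 were past p in each population, with a median log2 fold change over the 20 of 2.00. These 10 were Il1a, Il1b and Il1rn, the agonists and the antagonist of the interleukin 1 receptor, Il6, Il12b, Il23a and Osm, Ptgs2 (cyclooxygenase 2), Irg1 (Acod1, which makes itaconate) and Nlrp3, the inflammasome sensor. The count was 6 with the replicate block, 13 without the RAS libraries numbered 1 and 1 (Il1a) on 1 value per treatment and number.

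Il1a (chr2:129299609-129310186) is an interleukin 1 that also acts as an alarm signal of dying cells. Its levels were 11.5, 9.14 and 15.5 CPM in CD11chiMϕ Sham libraries and 24.8, 71.9, 123 and 106 CPM in RAS libraries. CD11cloMϕ gave 24.1, 21.7 and 44 CPM in Sham and 16, 150.4, 231 and 469 CPM in RAS. KRM gave 3.37, 3.18, 2.54 and 2.72 CPM in Sham and 36.9, 67.8 and 74.5 CPM in RAS. The groups were apart in CD11chiMϕ and KRM, while CD11cloMϕ RAS 1 was below all Sham libraries. Log2 fold changes were 2.76 in CD11chiMϕ, 2.85 in CD11cloMϕ and 4.34 in KRM, and the shared value was 3.29 ± 0.44 (adjusted p = 0.000776).

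Il1rn (chr2:24336860-24351491) encodes the receptor antagonist that blocks interleukin 1. CD11chiMϕ had 58, 22.5 and 7.92 CPM in Sham and 39, 146, 320.5 and 299 CPM in RAS. CD11cloMϕ had 75.8, 45.6 and 41.7 CPM in Sham and 66.2, 214, 487 and 815 CPM in RAS. KRM had 2.29, 1.91, 1.9 and 1.47 CPM in Sham and 8.65, 113 and 136 CPM in RAS. RAS 1 lay within the Sham range in CD11chiMϕ and CD11cloMϕ, and above it in KRM. The other 8 RAS libraries exceeded every Sham library of their population. Il1rn rose by 3.62 ± 0.61 (adjusted p = 0.00348).

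The promoters of these interleukin 1 genes each hold the 7-letter AP-1 motif TGANTCA, shown here because both genes rose in every population. Sequences are from RefSeq on GRCm38.p6, read 5′ to 3′ on the strand of the gene, with the motif in capitals. The window of Il1rn is chr2:24336708-24336736 on the plus strand, with the first base of the motif 141 bases before the gene start, and that of Il1a is chr2:129309973-129309995 on the minus strand, 12 bases before the start. Starts are those of the RefSeq transcripts in the promoter table, and for Il1a this start lies inside the longer gene span given above.
Il1rn: ttctgctagacTGAGTCAcgcctctggaa
Il1a: gcagagaagccTGACTCAgactt

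Il1b, the secreted form made by inflammasome activity, ran from 830.2 to 1371 CPM in Sham to 1119 to 7887 CPM in RAS CD11chiMϕ and from 533 to 1384 to 1513 to 7113 CPM in CD11cloMϕ. In KRM it was at 966 to 1118 CPM in Sham and 1133 to 3229 CPM in RAS, so the groups were apart there and in CD11cloMϕ but not in CD11chiMϕ. Its log2 fold change was 2.00 ± 0.37 (adjusted p = 0.00508). Il12b, the p40 chain shared by interleukins 12 and 23, rose by 3.14 ± 0.70 (adjusted p = 0.0162), with RAS above Sham in CD11chiMϕ and KRM. In CD11cloMϕ it was at 0, 0 and 0.111 CPM in Sham and 0, 0, 5.2 and 1.34 CPM in RAS. Il23a, the p19 chain of interleukin 23, was called (adjusted p = 0.00585) with 0 counts in all KRM Sham libraries and in all 3 RAS libraries numbered 1. CD11cloMϕ RAS libraries 2 to 4 held 12.1, 37.2 and 81.7 CPM.

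NF-kB subunits and feedback genes were called in 7 of 20 cases, all higher, with a median log2 fold change of 0.83 over the 20. These were Nfkb2 and Relb, the subunits of the alternative pathway, the inhibitors Nfkbid and Nfkbie, Tnip3, Tnfaip2 and Birc3. Without CD11chiMϕ RAS 1 the count was 11, and on 1 value per treatment and number it was 0. Tnfaip2, a gene induced by tumour necrosis factor, was at 68.8, 77.3 and 68.8 CPM in CD11chiMϕ Sham and 94, 276, 249 and 255 CPM in RAS. CD11cloMϕ libraries held 464, 387 and 323 CPM in Sham and 393, 807, 658 and 1395 CPM in RAS, and KRM libraries 31.2, 31.1, 28.8 and 32.4 and 33.1, 118 and 138 CPM. Groups were apart in CD11chiMϕ and KRM, and RAS 1 was the lowest RAS library in each population. Tnfaip2 rose by 1.43 ± 0.25 (adjusted p = 0.0042), Nfkbid by 1.27 ± 0.25, Tnip3 by 2.38 ± 0.47 and Birc3, an inhibitor of cell death, by 0.92 ± 0.20.

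AP-1 and immediate early factors were called in 10 of 24 cases, 9 higher and 1 (Jun) lower, with a median of 0.29 over the 24. None of the 10 was called on 1 value per treatment and number. The higher ones were Btg2, Egr2, Egr3, Fosl1, Fosl2, Ier3, Maff, Nr4a2 and Nr4a3. Fosl1 and Fosl2 are partners of Jun in AP-1, and Nr4a2 and Nr4a3 are orphan nuclear receptors. Nr4a3 was at 7.8, 6.06 and 7.79 CPM in CD11chiMϕ Sham and 6.19, 249.7, 219 and 231 CPM in RAS. CD11cloMϕ held 10.2, 6.26 and 11.1 CPM and 4.12, 44.4, 34.7 and 47.4 CPM, and KRM 0.602, 0.741, 0.499 and 0.942 CPM and 2.46, 19.1 and 22.3 CPM. RAS 1 was within or below the Sham range in CD11chiMϕ and CD11cloMϕ, and all other RAS libraries were above it. Nr4a3 rose by 3.53 ± 0.63 (adjusted p = 0.0047) and Nr4a2 by 3.29 ± 0.62 (adjusted p = 0.00599). Egr2, a zinc finger factor of macrophage activation, rose by 1.64 ± 0.33. Btg2, an antiproliferative gene, changed less, by 0.93 ± 0.19, and by between 0.87 and 1.03 in the populations.

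Btg2 and Nfkbid, with the growth factor gene Areg and the receptor gene Flt1 described further on, hold the 8-letter cAMP response element TGACGTCA in their promoters, shown because these called genes of different lists hold the same letters. The windows are chr1:134079303-134079332 (minus strand, 166 bases before the start), chr7:30422344-30422373 (plus strand, 51 bases before), chr5:91139527-91139556 (plus strand, 61 bases before) and chr5:147726074-147726103 (minus strand, 81 bases before), again from RefSeq on GRCm38.p6 with the motif in capitals.
Btg2: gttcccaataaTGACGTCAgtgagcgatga
Nfkbid: cgttagcgccgTGACGTCAgcgcgcggcgt
Areg: gggctggtccgTGACGTCAcgggcggtggc
Flt1: gggggacccctTGACGTCActggaaggagg

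Over the genes called higher with 1 sign, 323 of 470 had a promoter, searched over the 250 bases before the start, and 26 of them (8.05%) held TGANTCA on either strand, against 5.76% of genes tested and 7.82% of all 27025 promoters. TGACGTCA was held by 11 (3.41%), against 2.87% of genes tested and 1.77% of all. The 10-letter NF-kB motif was held by 7 (2.17%), against 0.475% and 0.414%. Of the 117 higher genes past p in each population 75 had a promoter, of which 6 (8%) held TGANTCA, 1 (1.33%) TGACGTCA and 0 the NF-kB motif. These shares are a description of letters in this window. They were not tested. The AP-1 and cAMP motifs do not overlap as spelled.

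Chemokines were called in 7 of 20 cases, all higher: Ccl5, Ccl7, Ccl8, Ccl17, Ccl22, Cxcl3 and Cxcl9. The median log2 fold change over the 20 was 0.93, and Ccl5 and Cxcl9 kept their calls on 1 value per treatment and number. Cxcl9, which attracts T cells through Cxcr3, was at 28.3, 19.4 and 26.8 CPM in CD11chiMϕ Sham and 41.3, 93.8, 111 and 109 CPM in RAS. In CD11cloMϕ it was at 12.4, 16.7 and 20.4 CPM and 16.2, 35.3, 72.7 and 33.8 CPM, and in KRM at 20.5, 16.8, 15.8 and 23.1 CPM and 61.4, 47.3 and 51.5 CPM. Only CD11cloMϕ RAS 1 lay within a Sham range. Cxcl9 rose by 1.53 ± 0.22 (adjusted p = 0.00135), with 1.84, 1.26 and 1.49 in CD11chiMϕ, CD11cloMϕ and KRM. Ccl5, made by T and NK cells as well as by macrophages, rose by 1.92 ± 0.31 (adjusted p = 0.00347) and was highest in RAS 1 among the KRM libraries, at 108 CPM. Ccl17, a ligand of Ccr4, rose by 4.30 ± 0.74, and its level in CD11chiMϕ went from 7.01 to 20.9 CPM in Sham to 38.1 to 794 CPM in RAS, while its highest value in CD11cloMϕ was 0.905 CPM and in KRM 5.04 CPM. Of 14 MHC class II presentation genes, 2 were called, the co-stimulatory genes Cd40 (0.93 ± 0.20) and Cd80 (1.59 ± 0.37), and none of the MHC class II chains. Neither was called on 1 value per treatment and number.

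Among the 14 higher genes chosen by rule, Flrt3 came first by the smallest of its fold changes over the populations. Flrt3 (chr2:140658198-140671476), a membrane protein of cell adhesion and guidance, was at 2.4, 2.13 and 1.51 CPM in CD11chiMϕ Sham and 3.19, 36.8, 215 and 231 CPM in RAS. CD11cloMϕ held 0.414, 0.116 and 0.111 CPM in Sham and 0.927, 11.8, 20.4 and 21.6 CPM in RAS. KRM held 0.12, 0.106, 0.0499 and 0.209 CPM in Sham and 0, 12 and 9.08 CPM in RAS. RAS 1 was the lowest RAS library in each population, was at 0 counts in KRM, and the groups were apart in CD11chiMϕ and CD11cloMϕ. The shared log2 fold change was 5.88 ± 0.84 (adjusted p = 0.000999), with a value of 5.85 to 5.90 in each population. All KRM Sham libraries and CD11cloMϕ Sham 2 and 3 were under 3 counts, near the limit of detection. The size of the change in these populations, and with it the rank, is therefore imprecise. Limma-voom did not call it, nor did the fit on 1 value per treatment and number (adjusted p = 0.157). Lrrc32 (GARP), which holds latent TGF-beta at the cell surface, rose by 4.63 ± 1.01 (adjusted p = 0.0142), and Mreg, a regulator of organelle transport, by 3.32 ± 0.62 (adjusted p = 0.00539). Lrrc32 lost its call with the replicate block, and both Lrrc32 and Mreg lost it on 1 value per treatment and number. Of the 82 genes named by rule 17 kept their call in that fit.

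Fibroblast and pericyte markers were called in 6 of 14 cases, all higher, with a median of 2.81 over the 14. The called genes were the collagens Col1a1, Col1a2 and Col3a1, the matrix proteins Mgp and Bgn, and Tagln, an actin-binding protein of contractile cells. Mgp, an inhibitor of calcification, was at 0.40, 0.85 and 2.51 CPM in CD11chiMϕ Sham and 1.5, 37.1, 16.3 and 11.2 CPM in RAS. CD11cloMϕ libraries held 1.14, 0.58 and 0 CPM in Sham and 0.309, 15.9, 41.1 and 11.8 CPM in RAS, and KRM libraries 1.93, 1.38, 1.35 and 2.09 CPM and 1.67, 140.2 and 138 CPM. RAS 1 lay within the Sham range in all 3 populations, and each other RAS library lay above it. Mgp rose by 4.84 ± 0.82 (adjusted p = 0.00378) and Col1a1 by 3.63 ± 0.67 (adjusted p = 0.00543). Summed over the 14 markers, the KRM libraries held 47.4 to 72.1 CPM in Sham, 76.3 CPM in RAS 1, and 1193 and 1251 CPM in RAS 2 and 3. CD11chiMϕ held 45.5 to 177.3 CPM in Sham and 52.4 to 516.0 CPM in RAS, and CD11cloMϕ 40.9 to 148.1 and 21.3 to 652.1 CPM. Whether the RNA came from stromal cells in the sorted pools was not tested. Without CD11chiMϕ Sham 3, or without CD11cloMϕ RAS 1, 10 of the fibroblast and pericyte genes were called, while limma-voom called 0 and the fit on 1 value per treatment and number also 0.

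Genes of matrix turnover were called in 4 of 17 cases, all higher, namely Mmp2, Adamts4, Timp1 and Adam8, with a median of 0.93 over the 17, in 7 (6 higher, 1 lower) without CD11chiMϕ Sham 3, and in 0 on 1 value per treatment and number. Mmp2, a gelatinase, was at 0.60 to 1.89 CPM in CD11chiMϕ Sham and 4.41 to 12.9 CPM in RAS, at 0.931 to 2.77 and 1.13 to 14.8 CPM in CD11cloMϕ, and at 0.843 to 1.38 and 7.77 to 22.5 CPM in KRM. Only CD11cloMϕ RAS 1 lay within a Sham range. It rose by 2.93 ± 0.44 (adjusted p = 0.00165), and Timp1, which inhibits metalloproteinases, by 3.78 ± 0.78 (adjusted p = 0.0102). Adam8 lost its call without CD11chiMϕ Sham 2, any KRM Sham library or KRM RAS 2. TGF-beta ligands, receptors and targets were called in 3 of 18 cases, all higher, with a median of 0.54. Of these Tgif1, a repressor of TGF-beta targets (1.16 ± 0.27), was called in every fit that left out 1 library, while Smad7 and Bhlhe40 lost their calls in 8 and 12 of the 21 fits. The count was 1 without any of CD11chiMϕ Sham 2, CD11chiMϕ RAS 4, CD11cloMϕ Sham 1, KRM Sham 1, 2 or 3, or KRM RAS 2 or 3, 5 (4 higher, 1 lower) without CD11chiMϕ Sham 3, and 0 on 1 value per treatment and number.

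Lipid-associated macrophage genes were called in 4 of 20 cases, all higher: Gpnmb, Ctsk, Fabp5 and Ctsd, with a median of 0.46. Gpnmb, a lysosomal glycoprotein of lipid-laden macrophages, was at 3.8, 1.59 and 8.67 CPM in CD11chiMϕ Sham and 26.4, 749, 138 and 119 CPM in RAS. In CD11cloMϕ it was at 2.38, 3.48 and 4.09 CPM and 3.81, 16, 12.3 and 31.3 CPM, and in KRM at 0, 0, 0.499 and 1.05 CPM and 9.63, 16.2 and 18.2 CPM. Only CD11cloMϕ RAS 1 lay within a Sham range. Gpnmb rose by 4.31 ± 0.73 (adjusted p = 0.00348), and the protease gene Ctsk by 4.21 ± 0.82 (adjusted p = 0.00724). Gpnmb was the 1 gene of this list called on 1 value per treatment and number. Fabp5, a fatty acid carrier, rose by 1.87 ± 0.40. The adjusted p of Ctsd, 0.0293, was lost when any of CD11chiMϕ Sham 1 or 2, KRM Sham 1 to 4, or KRM RAS 2 or 3 was left out.

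Genes of alternative activation and repair were called in 4 of 20 cases, all higher, with a median of 0.90 over the 20, and in 7 without CD11chiMϕ Sham 3, CD11chiMϕ RAS 1 or CD11cloMϕ RAS 1, of which 1 was lower in the first 2 of these fits, and in 0 on 1 value per treatment and number. Areg, an epidermal growth factor receptor ligand of tissue repair, rose by 2.87 ± 0.58 (adjusted p = 0.00924). Cd209a, a lectin of monocyte-derived dendritic cells, rose by 1.90 ± 0.44 (adjusted p = 0.0195) but lost its call with the replicate block. Tgm2, a crosslinking enzyme, lost its call in 11 of the 21 fits that left out 1 library. Mrc1, Igf1 and Folr2 of the same list were not called. Dendritic cell markers were called in 2 of 12 cases, Cd209a and Ccr7, and their summed level was 958.2 to 3057 CPM in Sham and 2443 to 8571 CPM in RAS CD11chiMϕ, 468.6 to 630.5 and 602.7 to 1523 CPM in CD11cloMϕ, and 1237 to 1526 and 935.6 to 1231 CPM in KRM. Their part in these results was not tested.

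Of 19 angiogenic factors and receptors, 3 were called, all higher, with a median of 1.53. Over the populations the median was -0.54 in CD11chiMϕ, 0.89 in CD11cloMϕ and 2.92 in KRM. These were Nrp2, a co-receptor of vascular endothelial growth factors (1.57 ± 0.30, adjusted p = 0.00633), Flt1, their receptor 1 (1.91 ± 0.43, adjusted p = 0.0164), and Plaur, the urokinase receptor (1.55 ± 0.35, adjusted p = 0.0167). Vegfa, Pgf and Kdr were not called. The angiogenic count was 8 without CD11chiMϕ Sham 3, 5 without CD11cloMϕ RAS 1 and 1 (Flt1) on 1 value per treatment and number. Flt1 is also an endothelial marker and was the one called of 13, where 9 were called without CD11chiMϕ Sham 3. The endothelial medians were -1.10, 2.89 and 3.92 in CD11chiMϕ, CD11cloMϕ and KRM. Without Eng, the most abundant on average, the endothelial sums in KRM were 11.6 to 25.4 CPM in Sham and 31.1, 277.6 and 243.2 CPM in RAS 1, 2 and 3. They were 25.9 to 276.9 and 35.3 to 101 CPM in CD11chiMϕ, and 29.2 to 56.2 and 60.8 to 331 CPM in CD11cloMϕ. Whether the RNA came from endothelial cells was not tested. Flt1 was at 0.602, 0.847, 0.748 and 0.942 CPM in KRM Sham and 2.26, 14.8 and 14.9 CPM in KRM RAS, with no overlap, whereas the CD11chiMϕ and CD11cloMϕ groups overlapped.

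Cell cycle genes were called in 6 of 24 cases, all higher, with a median of 1.00, in 10 without CD11cloMϕ Sham 3 and in 1 (Cdk1) on 1 value per treatment and number. They were the mitotic genes Birc5, Ccnb1, Cdk1, Hmmr, Mki67 and Top2a. Top2a was at 21.4 to 47.4 CPM in Sham and 40.2 to 132 CPM in RAS CD11chiMϕ, at 1.55 to 4.18 and 3.19 to 10.6 CPM in CD11cloMϕ, and at 4.89 to 8.55 and 14.5 to 23.3 CPM in KRM, where the groups were apart. It rose by 1.34 ± 0.25 (adjusted p = 0.00539) and Mki67 by 1.09 ± 0.21 (adjusted p = 0.00712). Nrf2 antioxidant genes were called in 5 of 19 cases, all higher with a median over the 19 of 0.097: Mt1, Mt2, Slc7a11, Srxn1 and Txnrd1. Slc7a11, the cystine importer, rose by 1.91 ± 0.36 (adjusted p = 0.00637). No antioxidant gene was called on 1 value per treatment and number, and the count fell to 3 without CD11chiMϕ Sham 2, any KRM Sham library, KRM RAS 2 or KRM RAS 3.

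The remaining function lists held few calls. Among 24 hypoxia and glycolysis genes 2 were called, Slc2a1 and Pfkp, with a median of 0.17, and both were lost without CD11chiMϕ Sham 1 or 2, KRM Sham 1 or 3, or KRM RAS 2 or 3. Lysosome enzymes and proton pump genes gave 2 of 22 (Atp6v0d2 and Gla, 0 without KRM Sham 3), S100, annexin and Capg genes 3 of 19 (Anxa3, Anxa4 and Capg), complement 1 of 16 (Serping1, 0 without KRM Sham 3 or KRM RAS 3) and sterol and fatty acid synthesis 1 of 20 (Scd2, 0 without KRM Sham 3). Of the genes in these lists Capg, whose signs were mixed, was the 1 called on 1 value per treatment and number. EdgeR called 0 of 24 interferon-stimulated genes, with 3 past an unadjusted p of 0.05, 1 called by DESeq2 and 0 by limma-voom, and their median was -0.011. For the 20 heat shock and unfolded protein response genes the same numbers were 0, 3, 3 and 0, with a median of 0.046.

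Counts of called list genes moved with the 2 sets of libraries that were left out together. Calls over all genes tested rose as well. They went from 540 of 14504 (474 higher, 66 lower) to 1459 of 15035 (1030 higher, 429 lower) without the RAS libraries numbered 1. The list counts below are not corrected for that rise. Without the RAS libraries numbered 1, 14 NF-kB genes were called in place of 7, 12 chemokines in place of 7, 12 fibroblast and pericyte markers in place of 6, and 7 lipid-associated macrophage genes in place of 4, all higher. Matrix turnover gave 5 higher and 2 lower, alternative activation and repair 7 higher and 1 lower, angiogenic factors 5 higher, TGF-beta genes 5 higher and the glucocorticoid response 4 lower. Among lists with fewer calls, hypoxia and glycolysis gave 4, sterol synthesis 4, dendritic cell markers 4, complement, endothelium and podocyte markers 2 each, all higher, and neutrophil markers 1 higher and 1 lower.

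Without the Sham libraries numbered 3, tubular and endothelial markers moved most: 12 of the tubular epithelium and injury genes, 12 collecting duct genes, 9 thick ascending limb and distal tubule genes and 8 endothelial markers were called, all higher. Over all genes tested 1766 of 14931 were called in that fit (1473 higher, 293 lower), against 540 of 14504 with all libraries. Angiogenic factors gave 7 higher, matrix turnover 7 higher and 1 lower, alternative activation and repair 6 higher and 1 lower, TGF-beta genes 4 higher and 1 lower, and the glucocorticoid response 1 higher and 3 lower. Dendritic cell markers gave 4, complement, sterol synthesis and podocyte markers 3 each, all higher, and neutrophil markers 1 higher and 1 lower. Lists with no call before gained at most 2 in either fit apart from the thick ascending limb and distal tubule.

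The medians of some lists did not have 1 sign in every population. In addition to the angiogenic list, for example, the median of AP-1 and immediate early factors was -0.13 in CD11cloMϕ, that of TGF-beta genes -0.28 in CD11chiMϕ, that of MHC class II presentation -0.63 in KRM and that of endothelial markers -1.10 in CD11chiMϕ, while the shared medians of these lists were above 0. T and NK cell markers had medians of 3.05, 2.83 and 5.36 in CD11chiMϕ, CD11cloMϕ and KRM, inflammatory cytokines 1.26, 1.14 and 2.51, and fibroblast and pericyte markers 1.98, 2.05 and 4.16.

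**Figure D3:**
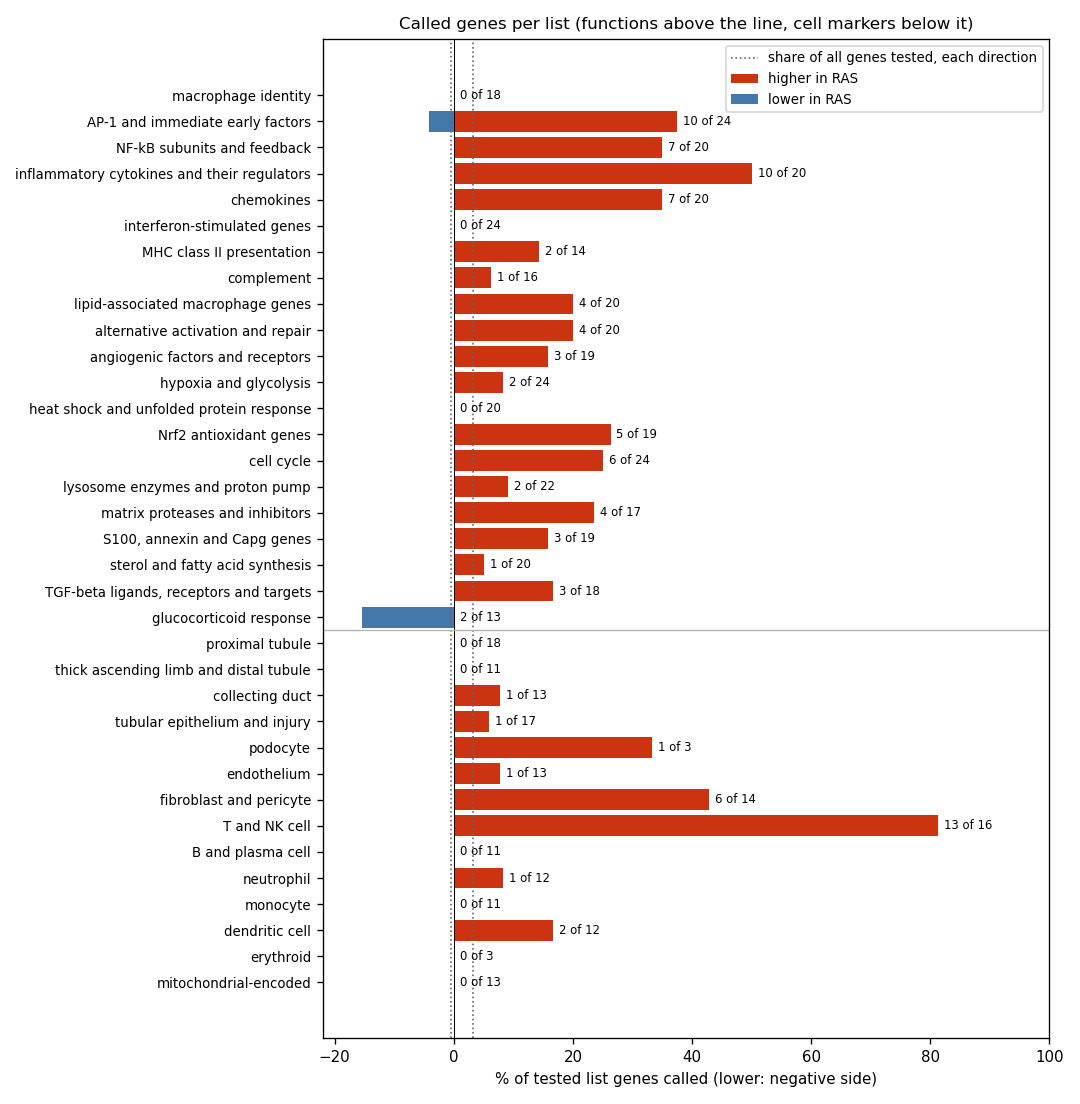
Share of tested list genes called (x axis, percent; lower genes on the negative side) for each function list and each cell marker list (y axis), with the dotted lines at the shares over all genes tested, 3.27% higher and 0.455% lower. T and NK cell markers reach 13 of 16, and 9 lists have no called gene.

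Few markers of kidney epithelium were called. One of 17 tubular epithelium and injury genes was called, Havcr1 (Kim-1), and 1 of 13 collecting duct genes, Atp6v0d2, which macrophages also express. Their sums differed mostly in KRM: the 17 tubular epithelium genes summed to 17.6 to 113.1 CPM in Sham, 129.3 CPM in RAS 1, and 6426 and 4746 CPM in RAS 2 and 3. Collecting duct genes summed to 2.75 to 7.3 CPM in KRM Sham, 15.2 CPM in RAS 1, and 2396 and 1875 CPM in RAS 2 and 3. The thick ascending limb and distal tubule list gave 349.9 to 624.7, 413.7, and 5729 and 4299 CPM in the same order. Collecting duct medians were -2.67, 3.7 and 9.95 in CD11chiMϕ, CD11cloMϕ and KRM, and thick ascending limb medians -2.71, -0.604 and 5.44. Without CD11chiMϕ Sham 3 the calls of the tubular epithelium and collecting duct lists were 6 and 11, without CD11chiMϕ RAS 3 the call of Havcr1 was lost, and without KRM Sham 3 or 4 the collecting duct call was lost. EdgeR called 0 of 18 proximal tubule markers, whose median was -2.15, with 14 lower at an unadjusted p of 0.05, 1 called by DESeq2 and 0 by limma-voom, and their highest values were those of the Sham libraries numbered 3. It called 0 of 11 thick ascending limb and distal tubule, 0 of 11 B and plasma cell, 0 of 11 monocyte, 0 of 3 erythroid and 0 of 13 mitochondrial-encoded genes, with 0, 3, 2, 0 and 0 of them past an unadjusted p of 0.05, 0, 1, 1, 0 and 0 called by DESeq2, and none by limma-voom. One neutrophil marker of 12 (Ltf) and 1 podocyte marker of 3 (Synpo) were called, and Synpo lost its call without KRM Sham 3 or 4 or KRM RAS 2 or 3.

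Lower genes were fewer and their median change was smaller. The higher genes were more often low in level: 252 of the 470 had an average log2 CPM of at least 3, against 59 of the 65 lower ones. The glucocorticoid response was the list whose called genes were all lower, 2 of 13, Fkbp5 and Zbtb16, against 0.455% of all genes tested called lower. The median over the 13 was -0.072, and Fkbp5 kept its call on 1 value per treatment and number. Fkbp5 (chr17:28398753-28486149), an immunophilin that restrains the glucocorticoid receptor and is itself induced by it, was at 32.6, 128 and 36.5 CPM in CD11chiMϕ Sham and 25.9, 26, 21.3 and 30.5 CPM in RAS. CD11cloMϕ libraries held 95.3, 38.8 and 22 CPM in Sham and 17.6, 17.8, 18.8 and 22.5 CPM in RAS. In KRM it was at 109.8, 113, 122 and 80.9 CPM and 31.3, 30.3 and 23.2 CPM. Groups were apart in CD11chiMϕ and KRM, and in CD11cloMϕ the RAS 4 library lay just inside the Sham range. Unlike most genes named above, RAS 1 stood with the other RAS libraries. The log2 fold change was -1.56 ± 0.25 (adjusted p = 0.00298), and among the alternatives its call was lost without KRM. Zbtb16 (PLZF), another gene that glucocorticoids induce, fell (log2 fold change -1.11 ± 0.25, adjusted p = 0.0171).

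Jun, the AP-1 subunit, was the called gene of its list that was lower in RAS. It was at 5392, 2885 and 1554 CPM in CD11chiMϕ Sham and 2127, 799, 890.3 and 894 CPM in RAS. CD11cloMϕ held 1412, 3383 and 2048 CPM and 1212, 959.9, 2155 and 1134 CPM, and KRM 5470, 5096, 3864 and 6775 CPM and 2840, 1660 and 1856 CPM. Only the KRM groups were apart. Its log2 fold change was -1.19 ± 0.26 (adjusted p = 0.0149). Ctse, an endosomal protease of antigen processing, had the largest fall among genes past p in each population, at -3.26 ± 0.64 (adjusted p = 0.00761). It was at 104, 94.3, 85.4 and 53.5 CPM in KRM Sham and 8.75, 4.52 and 4.68 CPM in KRM RAS. In CD11chiMϕ it was at 6.3, 96.2 and 3.39 CPM and 10.5, 3.65, 2.25 and 0.85 CPM, and in CD11cloMϕ at 402, 15.2 and 18.2 CPM and 28.6, 12.3, 13 and 19.8 CPM. One Sham library stood far above the others in each of these, CD11chiMϕ Sham 2 and CD11cloMϕ Sham 1, and without the latter the call was lost. Jun and Ctse were not called on 1 value per treatment and number (adjusted p = 0.128 and 0.067).

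Bbc3 (Puma), which promotes cell death, fell (log2 fold change -0.98 ± 0.23, adjusted p = 0.0204). Atp5sl, a mitochondrial assembly factor, followed with -0.58 ± 0.10 (adjusted p = 0.00348), and Actr6, a chromatin remodelling subunit, -0.63 ± 0.14 (adjusted p = 0.0142). Bbc3 groups overlapped in CD11chiMϕ and CD11cloMϕ. Atp5sl was at 23.9 to 27.6 CPM in Sham and 12.3 to 17.1 CPM in RAS CD11cloMϕ and at 35.6 to 39.9 and 23.3 to 28.3 CPM in KRM, with no overlap, and only CD11chiMϕ RAS 1 touched the Sham range of its population. Ifnb1, interferon beta, was called lower with 1 sign, but its Sham values ran from 0 to 65.5 CPM and the call was lost without CD11chiMϕ Sham 1 or CD11cloMϕ Sham 2. Qprt, of NAD synthesis, lost its call without CD11cloMϕ Sham 3, and Dnase1l1, a nuclease, without KRM RAS 3. Paqr7, a progesterone receptor, lost it without CD11cloMϕ RAS 4, KRM RAS 2 or KRM RAS 3. Of the genes of this paragraph, Dnase1l1 and 7SK kept their calls on 1 value per treatment and number. The small nuclear RNA 7SK lost its call in 8 of the 21 fits without 1 library and Cyp2d12, a cytochrome P450 whose highest value was CD11chiMϕ Sham 3, in 14.

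**Figure D4:**
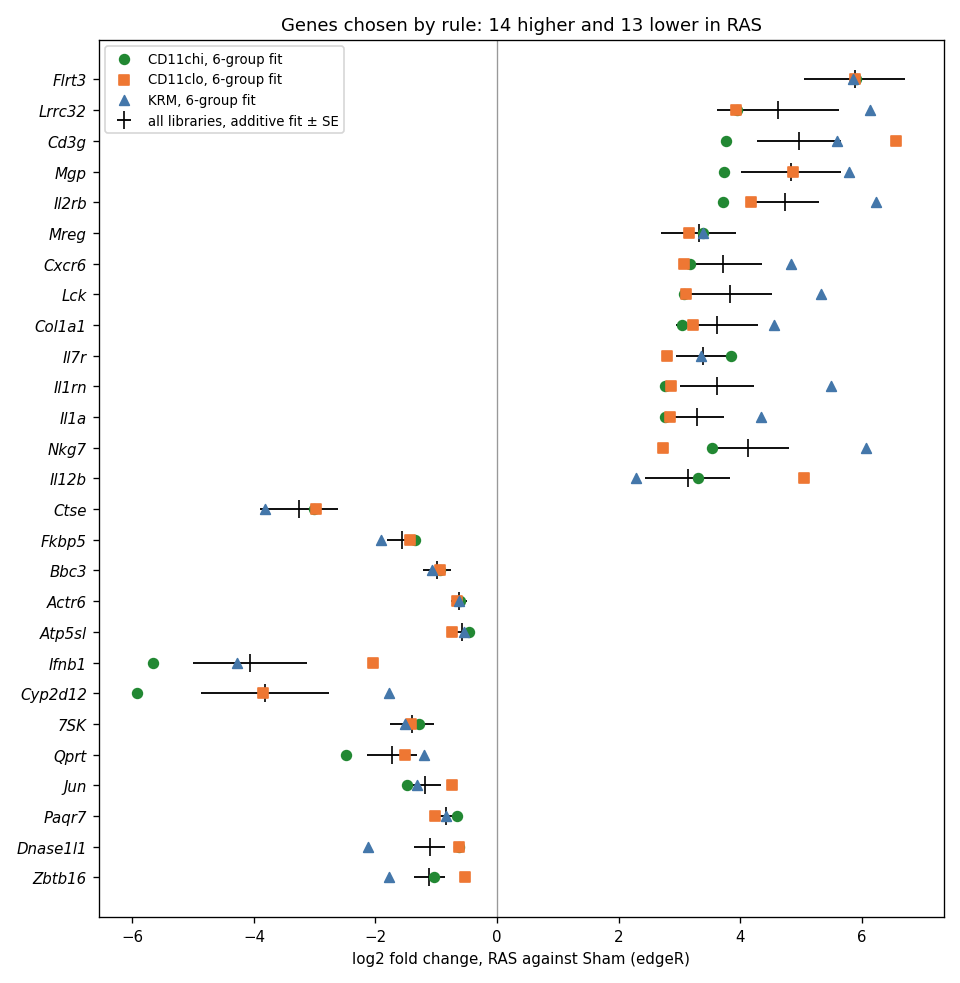
Log2 fold change of RAS against Sham (x axis) for the 14 higher genes chosen by rule and 13 of the 14 lower ones (y axis), with 1 symbol per population from the 6-group model and the shared value with its standard error as a bar. All symbols lie on 1 side of 0 for each gene, and the shared values of the lower genes lie closer to 0 than those of the higher ones apart from Ctse, Ifnb1 and Cyp2d12.

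The RAS libraries did not contribute alike. The share of the 470 higher genes that lay above every Sham library of its own population was 58.1% for CD11chiMϕ RAS 1 and 85.5% to 91.9% for RAS 2 to 4. In CD11cloMϕ it was 36.4% for RAS 1 and 80.2% to 90.9% for the others, and in KRM 69.4% for RAS 1 and 95.5% and 96.2% for RAS 2 and 3. Over all genes tested the shares ran from 15.5% to 37%, and RAS 1 was the lowest of its population there too. The fits that chose the 470 genes used these values, so the shares are a description. All RAS libraries numbered 1 were above their Sham libraries for 113 of the 470 genes (24%), and none of them for 83 (17.7%). For 58 genes (12.3%) no library numbered 1 exceeded its Sham range while all 8 other RAS libraries did. Among the 58 were Mgp, Areg, Tnip3, Ptgs2, Il23a and Relb.

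Gene groups fell on both sides of this split. For the 13 called T and NK cell genes RAS 1 was above every Sham library for 12 in CD11chiMϕ, 13 in CD11cloMϕ and 13 in KRM. The 10 called inflammatory cytokine genes gave 2, 1 and 7 in the same order. The 7 NF-kB genes gave 2, 3 and 3, and the 6 fibroblast and pericyte genes 3, 0 and 4. Each of the other 8 RAS libraries was above every Sham library for 9 or 10 of the 10 cytokine genes. Whether the numbers 1 mark the same mouse or the same day is not stated in the labels.

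**Figure D5:**
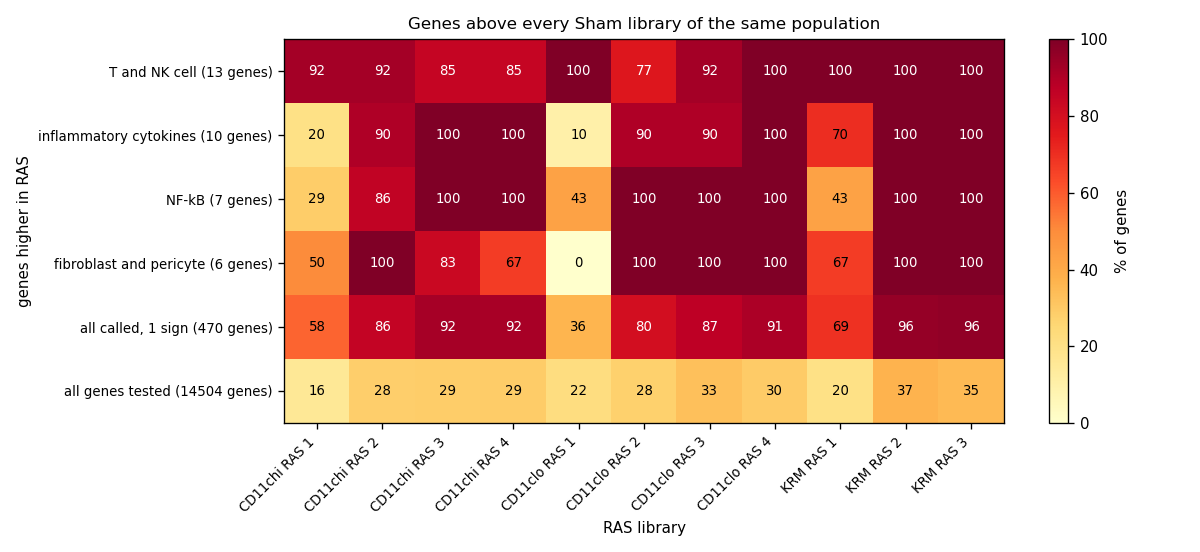
Share of the genes called higher that lie above every Sham library of the same population (colour and number, percent), for each RAS library (columns) and gene group (rows). RAS 1 exceeds the Sham libraries for 2, 1 and 7 of 10 cytokine genes and for 12, 13 and 13 of 13 T and NK cell genes in CD11chiMϕ, CD11cloMϕ and KRM.

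The populations carried the shared result unequally. Of the 535 genes, 369 had an unadjusted p under 0.05 in CD11chiMϕ, 291 in CD11cloMϕ and 441 in KRM, and 122, 324, 87 and 2 passed in 3, 2, 1 and 0 populations. In fits on the 7 libraries of 1 population, edgeR called 0 genes in CD11chiMϕ and 0 in CD11cloMϕ, with 632 higher and 615 lower genes past an unadjusted p of 0.05 in the first and 687 and 415 in the second, and DESeq2 called 189 and 107. In KRM edgeR called 998 higher and 249 lower genes. Of the 998 genes called higher in KRM alone, 41.8% were also higher in both other populations, against 30.1% of genes tested that were higher in KRM, and of the 249 called lower 31.7% against 28%.

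Genes whose response differed between populations were sought with the interaction test, which called 15 of 14504. Of these only Rnf125, a ubiquitin ligase, was also called for the shared effect (log2 fold change 1.75, adjusted p = 0.0254), with 1.80 in CD11chiMϕ, 0.13 in CD11cloMϕ and 3.79 in KRM. The count of 15 rested on single libraries: it was 484 without CD11chiMϕ RAS 1, 737 without KRM RAS 1 and 0 without KRM Sham 1 or KRM Sham 2. Of the 5 called genes with mixed signs, Gpc1, a heparan sulfate proteoglycan, was higher in CD11chiMϕ (2.32) and KRM (3.09), with a log2 fold change of -0.23 in CD11cloMϕ, and Capg, an actin-capping protein, showed 1.95, 2.79 and -0.28 in the same order. P2ry10, a lysophospholipid receptor, showed 3.24, 2.23 and a value near 0. Ccr4, the receptor of Ccl17 and Ccl22, was at 0 counts in every CD11cloMϕ library. In CD11cloMϕ the RAS and Sham libraries of Gpc1 overlapped, at 9.18 to 26.8 and 9.39 to 18.4 CPM. The calls of Gpc1, Capg and P2ry10 were lost in 7, 11 and 12 of the 21 fits that left out 1 library.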

How the data were processed

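RNA was made from sorted macrophages with an ultra low input kit, and per the study's methods the authors aligned paired reads to mm10 and counted genes of an Ensembl annotation. The authors deposited these as a table of estimated counts per gene line, of which 9.7% to 14.2% per library are not whole numbers. They were rounded here after 37620 lines had been summed to 34236 names. A second table deposited by the authors holds log2 values after scaling and quantile normalization, and served as an alternative. Columns were matched to samples by their names. 25 names had been turned into dates and were kept as they stand.

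Genes with at least 10 counts in enough libraries and 15 in all were kept (filterByExpr), scaled by TMM and tested with edgeR 4.0.16 in R 4.3.3 (quasi-likelihood test, two-sided, Benjamini-Hochberg adjusted over 14504 genes, threshold 0.05), with population and treatment as additive terms. Fold changes per population came from a model of 6 groups, and differences between populations from an interaction test. A prior count of 2 was used for average levels. The authors' own tests used DESeq2 in each population. Alternatives were median of ratios and total library size scaling, other count filters, a replicate block, equal weight of populations, leaving out libraries or populations, DESeq2 1.42.0, limma 3.58.1 (voom, also with a random effect), 1 value per treatment and number, and the log2 table. Leaving out the RAS libraries numbered 1 was added after seeing the data. The scripts were tested on simulated data. Depth limits low genes, since 3 counts equal 0.15 to 0.476 CPM.

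The members and the gene lists were chosen with earlier results of these data known. Of 573 list genes in 35 lists 568 were found, 8 of them under older symbols. Named genes were the 14 in each direction, past p in each population with an average log2 CPM of at least 3, ranked by the smallest absolute fold change over the populations, then called genes of 1 sign where places were left, up to 4 called genes per function list, and 4 of mixed sign. Marker list members and genes named for their separation were named beside these, and the results of some genes are not reported here. Positions and promoters are from RefSeq (GRCm38.p6), where 57 of 82 named genes had a promoter.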

Additional observations from a re-analysis of the deposited data

Results flagged for a closer look

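The gap between the highest or lowest library and its nearest neighbour, as a share of the range of its group on the log2(CPM + 1) scale, was compared with Dixon's 95% critical value of 0.829 for the 240 groups of 4 libraries formed by 80 named genes. The gap passed it in 21 groups (8.75%), where chance alone gives about 1 in 20, and 10 of the 21 were in CD11chiMϕ RAS 1. No cause was tested.

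In CD11cloMϕ RAS 2, Anxa4 was above the others at 128 CPM against 109 to 110 CPM (share 0.949). Atp5sl was below the others at 12.3 CPM against 16.3 to 17.1 CPM (share 0.856). Dnase1l1 was above the others at 74 CPM against 40 to 44.5 CPM (share 0.831). Il7r was below the others at 0.239 CPM against 2.07 to 2.6 CPM (share 0.85).

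In KRM Sham 3, Cyp2d12 was above the others at 73.8 CPM against 3.81 to 5.06 CPM (share 0.916).

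In CD11cloMϕ RAS 1, Bbc3 was above the others at 30.6 CPM against 17.8 to 19.2 CPM (share 0.857). Nr4a3 was below the others at 4.12 CPM against 34.7 to 47.4 CPM (share 0.865).

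In CD11chiMϕ RAS 1, Ccl17 was below the others at 38.1 CPM against 584 to 794 CPM (share 0.898). Cxcr6 was above the others at 49.4 CPM against 20.4 to 23.2 CPM (share 0.855). Il7r was below the others at 15.7 CPM against 38.2 to 42.9 CPM (share 0.884). Jun was above the others at 2127 CPM against 799 to 894 CPM (share 0.885). Mki67 was below the others at 42.4 CPM against 110 to 134 CPM (share 0.829). Mt2 was below the others at 12.8 CPM against 96 to 143 CPM (share 0.832). Nfkbid was below the others at 112 CPM against 434 to 457 CPM (share 0.963). Nr4a2 was below the others at 11.8 CPM against 187 to 300 CPM (share 0.851). Nr4a3 was below the others at 6.19 CPM against 219 to 250 CPM (share 0.963). Tnfaip2 was below the others at 94 CPM against 249 to 276 CPM (share 0.903).

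In CD11chiMϕ RAS 2, Ccl5 was above the others at 202 CPM against 80.5 to 89.7 CPM (share 0.884). Ctsd was above the others at 3592 CPM against 830 to 1014 CPM (share 0.863).

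In KRM Sham 4, Il2rb was below the others at 0.209 CPM against 0.843 to 0.998 CPM (share 0.839). Nrp2 was above the others at 6.17 CPM against 2.22 to 2.5 CPM (share 0.899).

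The interaction test called 15 genes whose change under RAS differed between populations. Among called genes this was Rnf125 (adjusted p = 0.0479), which showed log2 fold changes of 1.80 in CD11chiMϕ, 0.13 in CD11cloMϕ and 3.79 in KRM. The other 14 included 2210020M01Rik, Bcam, Cd24a, Fam102a, Hip1r, Hsd11b1, Ikbke, S100a10, Scnn1a, Serpinb1a, Slc25a35, Sntb1 and Zfp37, named because of this test.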

How the results depend on the processing

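No result reversed. All 3 counts of shared genes moved by over 1.5 times with the libraries used. Where a population was left out, 1 sign and p were asked only of the 2 populations left. Counts from those fits are thus on a looser criterion than the 535 and 122 genes. Of 540 called genes, 535 with 1 sign and 122 past p in each population, the numbers were 271, 269 and 61 with at least 10 counts in every library, 330, 325 and 272 without CD11chiMϕ, 6, 6 and 6 without KRM, 1459, 1362 and 319 without the RAS libraries numbered 1, 3917, 3491 and 787 without these and the Sham libraries numbered 3, and 245, 235 and 55 by limma-voom with treatment and number as a random effect. The first 2 were 1766 and 1722 without the Sham libraries numbered 3, 1285 and 1148 by DESeq2 (590 adjusted p not given), and 91 and 86 on 1 value per treatment and number. With equal weight of populations 912 genes were called. Those past p in each population were 388 without CD11cloMϕ, 56 by limma-voom and 68 on the log2 table. Genes whose response differed between populations numbered 15, and 25 with median of ratios scaling, 56 with total library size, 5 with at least 10 counts in every library, 1 without the Sham libraries numbered 3, 1721 without the RAS libraries numbered 1, 2361 without both sets and 1088 by DESeq2. In single populations CD11chiMϕ gave 0, 5 in the model of 6 groups and 189 by DESeq2, CD11cloMϕ 0 and 107 by DESeq2, and KRM 1247 and 3166 by DESeq2. Leaving out 1 library gave 337 to 1272 called genes, 335 to 1221 with 1 sign, 86 to 176 past p in each population and 0 to 737 with a differing response. The cause was not tested.

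After subtracting group means, RAS and Sham libraries of the same number had correlations of -0.196 to -0.0145 in CD11chiMϕ, 0.0758 to 0.325 in CD11cloMϕ and -0.167 to 0.211 in KRM. Those of different numbers had correlations of -0.171 to 0.201, -0.439 to 0.356 and -0.25 to 0.242 in the same order. Whether the numbers pair RAS with Sham samples is not stated in the labels, and these few correlations cannot settle it. With the number as a replicate block 442 genes were called, 440 with 1 sign, 102 past p in each population and 12 with a differing response. Across populations, libraries of the same treatment and number correlated over 0.1 in 9 of 9 Sham and 6 of 10 RAS pairs. For the same treatment and different numbers this held in 10 of 24 Sham and 7 of 30 RAS pairs. The additive fit, which called 540 genes, takes all libraries as independent, and on 1 value per treatment and number 91 were called.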
